A study of Rattus norvegicus with 24 samples.

Results

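Blood-brain barrier and endothelial genes were followed as 10 members, namely Cldn5, Ocln, Tjp1, Abcb1a, Slc2a1, Pecam1, Cdh5, Kdr, Flt1 and Mfsd2a. Each was found by its symbol in the deposited annotation, and each had exactly 1 transcript cluster, so the members were 10 of 68842 clusters on the array. No measured value was used to pick these clusters, but the 10 genes were chosen with earlier results of these data known. Transcripts of the nucleus accumbens, a ventral striatal region, were read on 1 Affymetrix array (Rat Transcriptome Array 1.0) for each male Sprague Dawley rat. Every rat carried a jugular catheter and lived through self-administration training and about a month of withdrawal. Tissue was taken the day after the second test of cue-induced seeking. Control rats (CT, 6 arrays) had pressed for saline. The paper describes footshocks for methamphetamine-trained and yoked rats, and none for these controls. Shock-resistant rats (SR, 6 arrays) had kept pressing for methamphetamine when presses were punished by footshock, and shock-sensitive rats (SS, 6 arrays) had cut their intake. Saline rats yoked to SR (YSR, 3 arrays) or to SS rats (YSS, 3 arrays) received shocks and saline infusions when their partners were shocked. SR and SS rats were sorted by their own behaviour and not assigned, and the arrayed rats were picked for RNA quality and integrity, which limits how far the groups stand for all rats of the experiment. A mark whose meaning is unknown here stands in the labels of CT, SR and SS and is missing from those of YSR and YSS, so if it marks a batch, batch and group cannot be told apart in comparisons between yoked and other groups.

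The blood-brain barrier is formed by endothelial cells of brain capillaries, which seal the space between neighbours with tight junctions, carry few vesicles across, and move nutrients in and drugs out through dedicated transporters. Claudin-5 (Cldn5) and occludin (Ocln) are membrane proteins of these junctions, and zonula occludens-1 (Tjp1) ties them to actin, a role it also has in many other cells. VE-cadherin (Cdh5) and PECAM-1 (Pecam1) hold endothelial cells together at adherens junctions and cell borders. P-glycoprotein (Abcb1a) pumps drugs back into blood, GLUT1 (Slc2a1) brings in glucose in endothelium and also in astrocytes, and Mfsd2a imports lysophosphatidylcholine that carries docosahexaenoic acid, and restrains transcytosis in mice. VEGFR2 (Kdr) is the main signalling receptor for VEGF, and VEGFR1 (Flt1) binds VEGF tightly and can act as a decoy.

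Comparisons are named by their groups, so SRvsCT is SR minus CT, and so on. Values are log2 signals, so a difference of 1 would be a doubling. Tjp1 and Slc2a1 were above the 95th percentile of the array's own negative control probes (9.63 to 10.32 over the arrays) on 24 of 24 arrays, and Abcb1a on 20 of 24. The other 7 members were above it on 0 of 24 arrays. For those 7 the log2 difference is given and no fold, since signals near background understate changes, and a level cannot be read as expression on its own. Over the 24 arrays the mean signal ± SD was 12.74 ± 0.09 for Tjp1, 12.23 ± 0.21 for Slc2a1, 10.29 ± 0.17 for Abcb1a and 8.28 ± 0.27 for Cdh5, and the SD of the other members lay between these. Levels of different genes come from different probes and are not set against each other. In bulk tissue, fewer endothelial cells and less RNA per cell cannot be told apart.

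Across the 5 groups no member differed past the adjusted test. In 1 limma fit over all 68842 clusters, 0 of 10 members had an adjusted p under 0.05 (Benjamini-Hochberg over all clusters) in the F test of 5 groups, where 0% of all clusters did, and 0 of 10 had an unadjusted p under 0.05, where 9.19% of clusters did. The adjusted p of the F test ran from 0.656 for Mfsd2a to 0.992 for Flt1. Of the 80 member differences in the 8 pairwise comparisons, 0 had an adjusted p under 0.05 and 1 had an unadjusted p under 0.05. The widest difference was 0.27 on the log2 scale, and the 95% intervals of all 80 lay between -0.55 and 0.54. A 1.7-fold change, the threshold used in the methods, is 0.77 on this scale, and each of the 80 intervals excluded a measured difference of that size. This bound is on the array's scale, which is compressed for the 7 members near background. For every member the gap between neighbouring group means, when the groups were put in order, was smaller than the pooled SD within groups. From lowest to highest group mean, the range exceeded that SD for Mfsd2a (0.31 against 0.19), Kdr (0.24 against 0.22) and Ocln (0.14 against 0.11). It also did for Tjp1 (0.14 against 0.08) and, barely, Abcb1a (0.1704 against 0.1692), and not for the other members. The order of means was SR, YSS, YSR, SS, CT from low to high for Ocln and YSS, CT, YSR, SR, SS for Slc2a1, and no order was shared by all members. Exact two-sided permutation tests of the 80 differences gave 1 p under 0.05, for Ocln in SRvsCT.

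**Figure D1:**
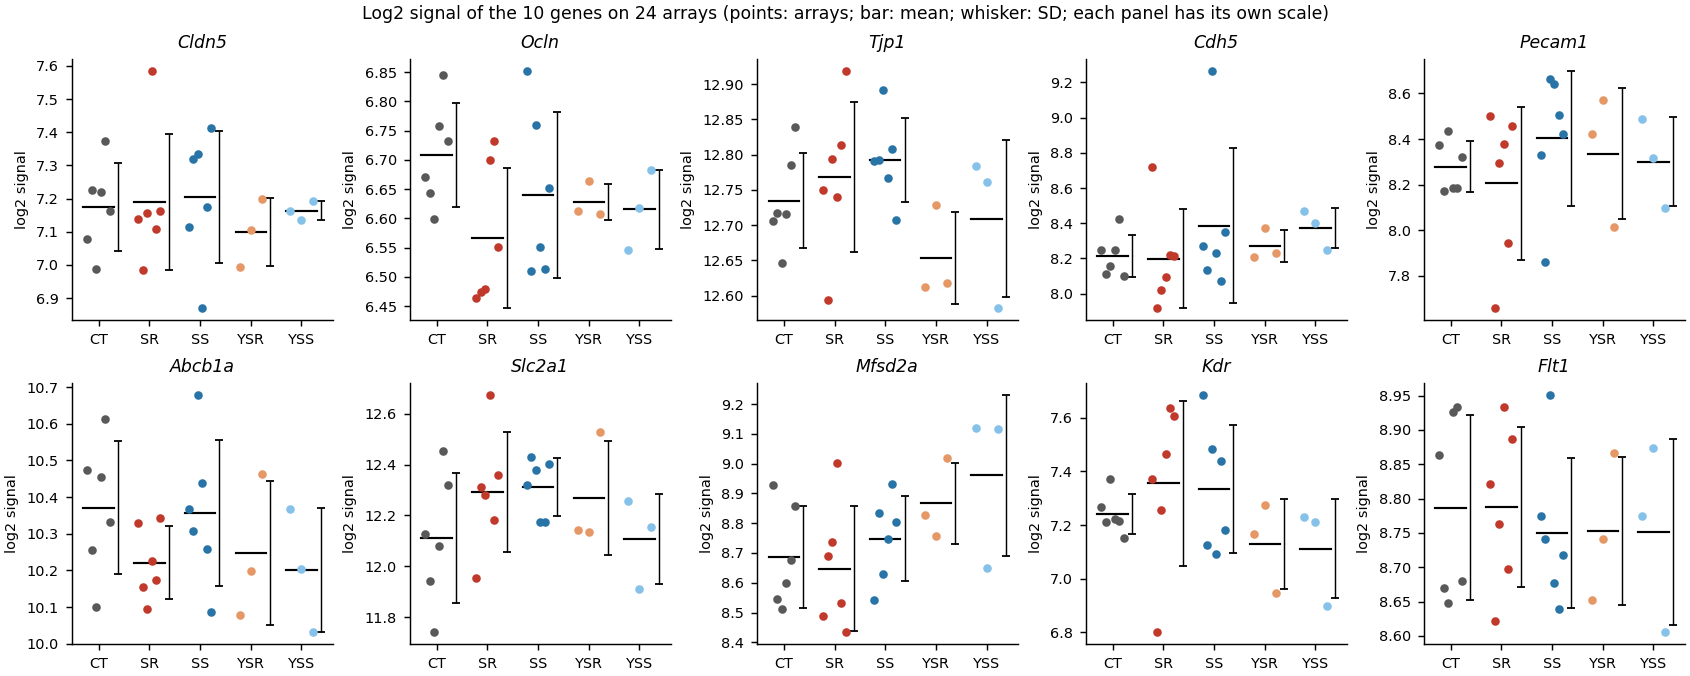
Log2 signal (vertical axis, its own scale in each panel) of each of the 10 genes by group, with 1 point per array, a bar at the group mean and a whisker of 1 SD (n = 6 for CT, SR and SS, n = 3 for YSR and YSS). The groups overlap in all 10 panels, and the isolated point of Cdh5 at 9.26 is SS replicate 3.

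By comparison, the share of all clusters with an adjusted p under 0.05 was 0.338% in SRvsCT, 0.00145% in SSvsCT and 0% in the other 6, and the share with an unadjusted p under 0.05 was 18.7% in SRvsCT, 8.71% in SSvsCT, 6.89% in SRvsSS, 4.88% in YSRvsCT, 4.57% in YSSvsCT, 2.75% in YSRvsYSS, 5.14% in SRvsYSR and 5.43% in SSvsYSS. Split into higher and lower, the unadjusted shares were 2.47% and 6.24% in SSvsCT, 2.45% and 4.44% in SRvsSS, 1.42% and 3.46% in YSRvsCT, 1.76% and 2.81% in YSSvsCT, and 1.98% and 3.15% in SRvsYSR. Differences past both 1.7-fold and an unadjusted p under 0.05 were found for 0 of 10 members in each comparison, against 0.224% of clusters in SRvsCT, 0.0712% in SSvsCT, 0.167% in SRvsSS, 0.0639% in YSRvsCT, 0.0959% in YSSvsCT, 0.0741% in YSRvsYSS, 0.177% in SRvsYSR and 0.128% in SSvsYSS. Of the 10 members, 0 passed the unadjusted threshold in 7 of these 8 comparisons and 1 did in YSSvsCT. The difference of differences, (SR-YSR)-(SS-YSS), had 0 members past either threshold, against 3.44% of clusters at the unadjusted one and 0% at the adjusted one. The median difference of the members was -0.01 in SRvsCT, where that of all clusters was -0.07, and 0.06 in SSvsCT, where that of all clusters was -0.03. In SRvsSS these medians were -0.05 for the members and -0.03 for all clusters. Among the 9044 clusters whose CT mean was above the bioB spike-in, the median was 0.03 in SRvsCT and 0.07 in SSvsCT, above those of the members. The balance of directions in SRvsCT also turned over among these clusters, with 15.9% higher and 5.38% lower at the unadjusted threshold, against 5.72% and 13% of all clusters. Scaling every array to an equal median over expressed clusters put the median of all clusters at -0.12 in SRvsCT.

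**Figure D2:**
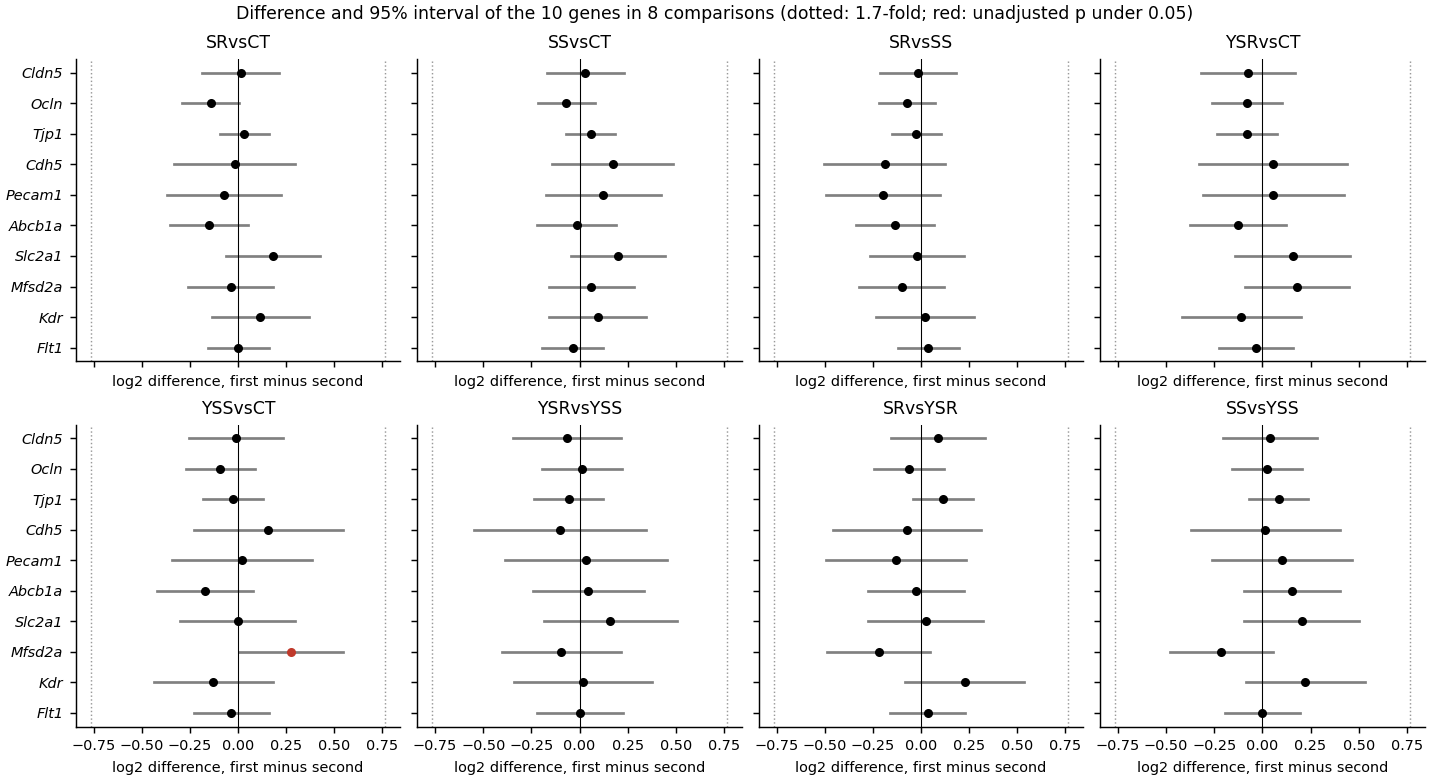
Log2 difference (horizontal axis, first group minus second) of each gene in 8 comparisons, with the limma estimate as a point and its 95% interval as a line. All 80 intervals end inside the dotted lines at 1.7-fold, and the single red point is Mfsd2a in YSSvsCT at 0.27.

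Among the 5 junction genes that were members, Ocln in SR came nearest to a difference from CT. Ocln signals (lowest, median and highest) were 6.60, 6.70 and 6.84 in CT, 6.46, 6.51 and 6.73 in SR and 6.51, 6.60 and 6.85 in SS, and 6.61, 6.61 and 6.66 in the 3 YSR arrays and 6.55, 6.62 and 6.68 in the 3 YSS arrays. Of the 6 SR arrays 4 were below every CT array, but the groups overlapped. The comparison SRvsCT gave log2 difference -0.14 ± 0.07 SE, unadjusted p = 0.0585, adjusted p = 0.284, and 95% interval -0.29 to 0.01, with an exact permutation p of 0.0455 (two-sided, n = 6 against 6). The sign was the same under all 32 alternative settings, with differences between -0.19 and -0.11 and adjusted p-values from 0.217 to 0.477. Ocln was among the 7 members near background.

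Tjp1 had the smallest SD over the 24 arrays, although the group means of Flt1 lay closer together. For Tjp1, the lowest, median and highest signals were 12.65, 12.72 and 12.84 in CT, 12.59, 12.77 and 12.92 in SR and 12.71, 12.79 and 12.89 in SS, and 12.61, 12.62 and 12.73 in the 3 YSR arrays and 12.58, 12.76 and 12.78 in the 3 YSS arrays. Of the 6 SR arrays 5 were above all 3 YSR arrays and 1 was below them (SRvsYSR, log2 difference 0.11 ± 0.07 SE, unadjusted p = 0.139, adjusted p = 0.951). In SRvsCT the difference was 0.03 with a 95% interval of -0.09 to 0.16, and in SSvsCT it was 0.06 with an interval of -0.07 to 0.18. These are the narrowest intervals among the 10 genes, with an SE of 0.06 for 6 against 6 arrays.

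Cldn5 varied little by group. Signals of Cldn5, given as lowest, median and highest, were 6.99, 7.19 and 7.37 in CT, 6.99, 7.15 and 7.58 in SR and 6.87, 7.25 and 7.41 in SS, and 6.99, 7.11 and 7.20 in the 3 YSR arrays and 7.14, 7.16 and 7.19 in the 3 YSS arrays. SR replicate 4 held the highest value, with the other SR arrays at 7.16 or below. Differences over the 8 comparisons ran from -0.08 to 0.09, with unadjusted p-values of 0.457 or more.

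Cdh5 and Pecam1 had the widest spread between arrays. The lowest, median and highest Cdh5 signals were 8.10, 8.20 and 8.42 in CT, 7.92, 8.15 and 8.72 in SR and 8.07, 8.25 and 9.26 in SS, and 8.21, 8.23 and 8.37 in the 3 YSR arrays and 8.25, 8.40 and 8.47 in the 3 YSS arrays. SS replicate 3 stood apart at 9.26, with the other 5 SS arrays between 8.07 and 8.35. With it, Cdh5 differed by 0.17 ± 0.15 SE in SSvsCT (unadjusted p = 0.271, adjusted p = 0.774). Without it the difference was -0.0038. SS replicate 3 also had the highest of 24 levels of the mural list (7.25, others 6.70 to 7.10), of the fibroblast and meninges list (6.72, others 5.74 to 6.37), of the other endothelial genes (7.07, others 6.88 to 7.03) and of the mean of the 10 members (9.30, others 8.82 to 9.18). The part of these markers in the Cdh5 value was not tested. Pecam1 signals (lowest, median and highest) were 8.17, 8.25 and 8.44 in CT, 7.66, 8.34 and 8.50 in SR and 7.86, 8.46 and 8.66 in SS, and 8.01, 8.42 and 8.57 in the 3 YSR arrays and 8.10, 8.31 and 8.49 in the 3 YSS arrays. Pecam1 overlapped between all groups, and the widest of its differences was SRvsSS (log2 difference -0.20 ± 0.14 SE, unadjusted p = 0.18, adjusted p = 0.798), which was -0.09 without SR replicate 2 and -0.31 without SS replicate 2.

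Of the transporters, Slc2a1 was well above background, and its means in SR, SS and YSR were above those in CT and YSS without passing the test. For Slc2a1, the lowest, median and highest signals were 11.74, 12.10 and 12.46 in CT, 11.95, 12.30 and 12.67 in SR and 12.17, 12.35 and 12.43 in SS, and 12.13, 12.14 and 12.53 in the 3 YSR arrays and 11.91, 12.16 and 12.26 in the 3 YSS arrays. The CT arrays spread over most of the range, and 0 of 6 SS arrays and 1 of 6 SR arrays were above every CT array. The fold was 1.15 in SSvsCT (log2 difference 0.20 ± 0.12 SE, unadjusted p = 0.1, adjusted p = 0.649) and 1.14 in SRvsCT (log2 difference 0.18 ± 0.12 SE, unadjusted p = 0.134, adjusted p = 0.396). The saline rats of YSR had nearly the same mean as SR, with a fold of 1.12 in YSRvsCT (log2 difference 0.16 ± 0.14 SE, adjusted p = 0.972) and a log2 difference of 0.02 in SRvsYSR. The upper limits of the SSvsCT and SRvsCT intervals were 0.44 and 0.43.

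Abcb1a was marginally above background on most arrays. Signals of Abcb1a, given as lowest, median and highest, were 10.10, 10.39 and 10.61 in CT, 10.10, 10.20 and 10.34 in SR and 10.09, 10.34 and 10.68 in SS, and 10.08, 10.20 and 10.46 in the 3 YSR arrays and 10.03, 10.20 and 10.37 in the 3 YSS arrays. The SR arrays all lay inside or just below the CT range (SRvsCT, log2 difference -0.15 ± 0.10 SE, unadjusted p = 0.139, adjusted p = 0.403). Its close paralog Abcb1b, a drug pump that rat brain also expresses, had 6 of 6 SR arrays below every CT array, as given with the transport genes. Whether probes of either bind the other's transcripts was not tested.

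Mfsd2a had the only member difference with an unadjusted p under 0.05. The lowest, median and highest Mfsd2a signals were 8.51, 8.64 and 8.93 in CT, 8.43, 8.61 and 9.0 in SR and 8.54, 8.77 and 8.93 in SS, and 8.76, 8.83 and 9.02 in the 3 YSR arrays and 8.65, 9.12 and 9.12 in the 3 YSS arrays. Of the YSS arrays 2 of 3 were above every CT array and the third lay within the CT range (YSSvsCT, log2 difference 0.27 ± 0.13 SE, unadjusted p = 0.0452, adjusted p = 0.9999, exact permutation p = 0.143). For this comparison 1.76% of all clusters were higher at that unadjusted threshold. The methamphetamine groups had lower means than their yoked partners, by -0.22 ± 0.13 SE in SRvsYSR (5 of 6 SR arrays below all 3 YSR arrays, adjusted p = 0.937) and by -0.21 ± 0.13 SE in SSvsYSS (adjusted p = 0.969). Over 32 settings the YSSvsCT difference ran from 0.17 with array weights to 0.43 without YSS replicate 2, with unadjusted p-values from 0.00496 to 0.258 and adjusted p-values of 0.782 or more.

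Neither VEGF receptor differed between groups past the test. Kdr signals (lowest, median and highest) were 7.15, 7.22 and 7.37 in CT, 6.80, 7.42 and 7.63 in SR and 7.09, 7.31 and 7.69 in SS, and 6.95, 7.17 and 7.28 in the 3 YSR arrays and 6.90, 7.21 and 7.23 in the 3 YSS arrays. CT arrays were close together, and the SR arrays spread above and below them. The Kdr mean of SR was above that of YSR by 0.23 ± 0.15 SE (adjusted p = 0.953) and that of SS above that of YSS by 0.22 ± 0.15 SE (adjusted p = 0.98), neither of which passed the test. The first was 0.13 without YSR replicate 3, and the second 0.10 without SS arrays 1 and 3. For Flt1, the lowest, median and highest signals were 8.65, 8.77 and 8.93 in CT, 8.62, 8.79 and 8.93 in SR and 8.64, 8.73 and 8.95 in SS, and 8.65, 8.74 and 8.87 in the 3 YSR arrays and 8.61, 8.77 and 8.87 in the 3 YSS arrays. The 5 group means of Flt1 lay within 0.04 of each other, and its 8 intervals were all inside -0.23 and 0.23.

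Within groups, several members varied together from rat to rat. Each signal was taken as its deviation from the group mean, and the 45 pairs were correlated over 24 arrays, with permutation within groups (100000 resamples) and p-values adjusted over the 45 pairs. Of the 45 pairs 33 had a positive Pearson r, with a median of 0.30 and a range of -0.38 to 0.76, and 5 had an adjusted p under 0.05. No such counts were made for other sets of clusters, so whether they are particular to these genes was not tested. The highest was Abcb1a with Flt1 (r = 0.76, permutation p = 0.00018, adjusted p = 0.0081, Spearman's rho = 0.79, permutation p = 9e-05), with r = 0.67 after the 2 arrays farthest from the Abcb1a median were left out. Next came Cldn5 with Slc2a1 (r = 0.66, permutation p = 0.00108, adjusted p = 0.0243, rho = 0.61, permutation p = 0.0034), with r = 0.57 without the 2 farthest arrays. The other 3 pairs were Slc2a1 with Mfsd2a (r = 0.61, adjusted permutation p = 0.0498, rho = 0.54), Abcb1a with Cdh5 (r = 0.60, adjusted permutation p = 0.0333, rho = 0.57) and Cdh5 with Flt1 (r = 0.58, adjusted permutation p = 0.0484, rho = 0.64). Leaving out the 2 arrays farthest on the first gene gave r = 0.48, 0.38 and 0.56 for these 3. Of all other clusters, 0.009% had a higher r with Flt1 than Abcb1a had, and 0.028% a higher r with Cldn5 than Slc2a1 had. This share was 0.145% for Slc2a1 with Mfsd2a, 0.293% for Cdh5 with Abcb1a and 0.569% for Cdh5 with Flt1. The pairs had been picked by their high r on these same arrays. Small shares therefore follow from the choice and are no separate support. Without SS replicate 3, 0 of 45 pairs had an adjusted permutation p under 0.05, with r = 0.70 (adjusted permutation p = 0.06) for Abcb1a with Flt1 and r = 0.66 (adjusted permutation p = 0.0517) for Cldn5 with Slc2a1. With equal array medians 1 pair passed, Cldn5 with Slc2a1 (r = 0.67, adjusted permutation p = 0.018), and Abcb1a with Flt1 had r = 0.69 (adjusted permutation p = 0.0652). Mfsd2a went with Slc2a1 but had negative coefficients with 7 of the other 8 members, down to -0.38 with Kdr (adjusted permutation p = 0.244).

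**Figure D3:**
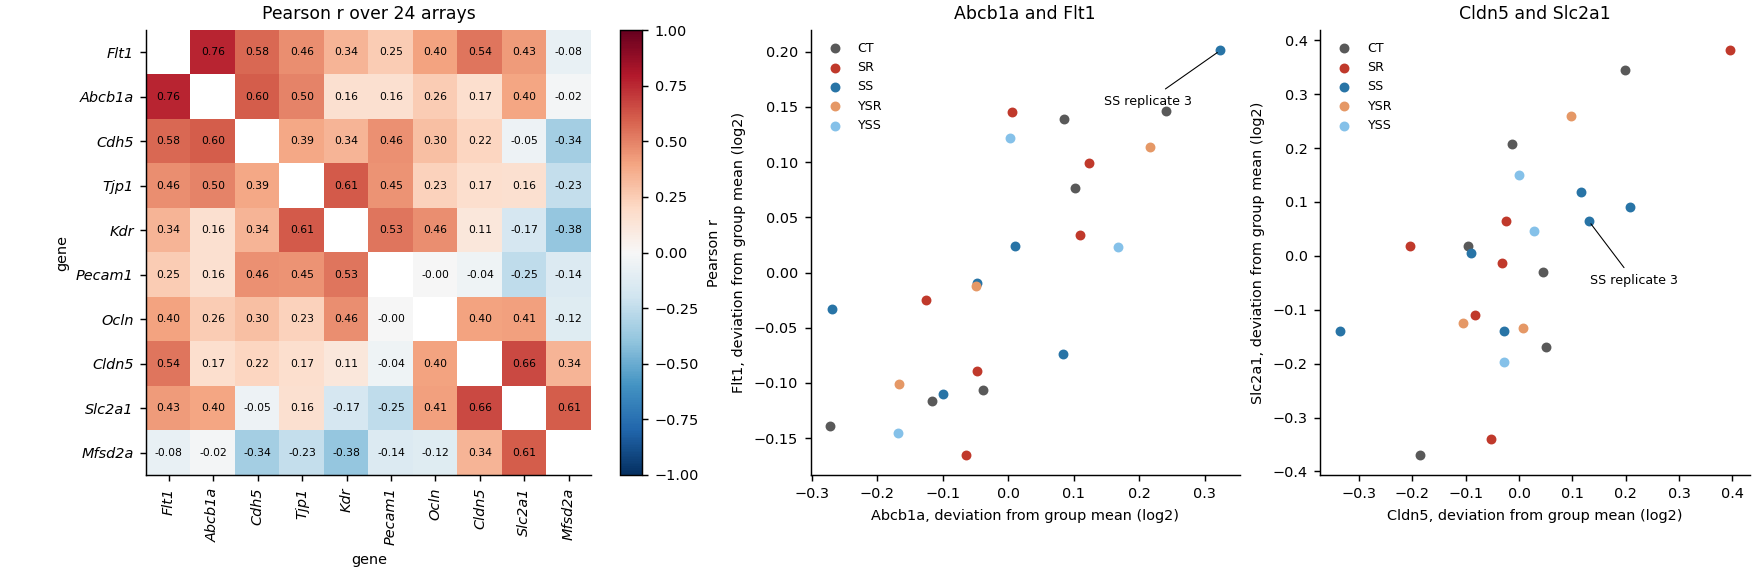
Pearson r of deviations from group means over 24 arrays for the 45 gene pairs (left, colour scale from -1 to 1), and the deviations (log2 units) of Abcb1a against Flt1 and of Cldn5 against Slc2a1 with 1 point per array, coloured by group. The points rise together in both plots (r = 0.76 and 0.66), and SS replicate 3 is the highest point for Abcb1a and Flt1.

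The promoters of the 2 pairs with the highest coefficients are shown for reading beside these correlations. RefSeq (GRCr8) promoter sequences of 300 bases, from 250 before to 50 after the start, were matched by symbol for 7 of the 10 members, and those of Abcb1a at chr4:26397599-26397898 (- strand), Flt1 at chr12:12333180-12333479 (+ strand), Cldn5 at chr11:95718549-95718848 (- strand) and Slc2a1 at chr5:138002272-138002571 (+ strand) are printed 5′ to 3′ on the gene's strand. Capitals mark matches on either strand to GGGCGG (a GC box), CCGGAA (the core of ETS factor sites) or ACGTG (the core of hypoxia response elements).
Abcb1a: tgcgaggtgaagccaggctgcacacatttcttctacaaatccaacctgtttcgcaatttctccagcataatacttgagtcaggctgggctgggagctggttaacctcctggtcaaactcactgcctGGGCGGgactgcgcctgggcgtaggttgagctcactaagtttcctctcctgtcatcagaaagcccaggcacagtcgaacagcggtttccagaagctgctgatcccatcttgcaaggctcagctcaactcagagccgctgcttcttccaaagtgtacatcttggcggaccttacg
Flt1: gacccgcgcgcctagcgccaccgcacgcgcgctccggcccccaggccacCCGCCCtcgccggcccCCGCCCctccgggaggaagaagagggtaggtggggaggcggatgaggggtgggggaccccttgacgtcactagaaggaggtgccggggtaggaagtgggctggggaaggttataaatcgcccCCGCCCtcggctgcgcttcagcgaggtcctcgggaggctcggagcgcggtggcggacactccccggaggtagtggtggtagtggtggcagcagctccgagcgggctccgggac
Cldn5: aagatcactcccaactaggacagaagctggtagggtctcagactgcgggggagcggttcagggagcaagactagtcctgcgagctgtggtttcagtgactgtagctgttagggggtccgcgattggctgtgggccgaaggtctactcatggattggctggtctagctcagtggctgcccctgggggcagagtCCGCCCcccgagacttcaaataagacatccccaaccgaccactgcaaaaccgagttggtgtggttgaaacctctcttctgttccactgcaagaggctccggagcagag
Slc2a1: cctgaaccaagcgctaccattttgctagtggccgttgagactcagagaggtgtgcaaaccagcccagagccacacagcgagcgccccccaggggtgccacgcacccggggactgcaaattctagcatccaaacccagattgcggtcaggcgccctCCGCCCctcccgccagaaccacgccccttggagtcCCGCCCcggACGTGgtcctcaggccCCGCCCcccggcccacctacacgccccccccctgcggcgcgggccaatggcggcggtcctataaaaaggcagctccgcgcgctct
All 4 hold a GC box, with 1 in Abcb1a, 3 in Flt1, 1 in Cldn5 and 3 in Slc2a1, and Kdr also has 1, which makes 5 of the 7 members. Of 33469 RefSeq promoters of this length, 33.1% hold this motif. The ETS core was found in 1 of the 7, Kdr, and in 15% of all promoters, and ACGTG in 1 of the 7, Slc2a1, and in 19.3% of all. A match is only a run of letters, and the arrays did not measure binding.

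Other endothelial genes were checked as a list of 35, all of them found. Among them Tek and Tie1 are receptor kinases of the angiopoietin system, Emcn is a sialomucin of capillary and venous endothelium, and Eng is a TGF-beta co-receptor. Of the 35, 0 passed the adjusted test in any comparison. At the unadjusted threshold 2 were higher and 1 lower in SRvsCT (all clusters, 5.72% and 13%, and clusters above bioB, where 5 of the 35 lay, 15.9% and 5.38%), 0 in either direction in SSvsCT, and 2 lower in SRvsSS (all clusters, 4.44%). Their median difference was -0.02 in SRvsCT and -0.05 in SSvsCT. Tek differed by 0.26 in SRvsYSR (adjusted p = 0.935) and by 0.09 in SRvsCT, Tie1 by 0.07, Eng by -0.02 and Emcn by -0.23 (adjusted p = 0.256) in SRvsCT. Cav1, which coats caveolae, differed by -0.21 in SRvsSS (adjusted p = 0.693), and Podxl, a sialomucin of the luminal surface, by -0.18 (adjusted p = 0.71). The endothelial genes named here all had a CT mean under the bioB spike-in. The level of this list, taken per array, correlated with the mean standardised deviation of the members (r = 0.76 over 24 arrays, permutation p = 0.0003, adjusted p = 0.0045 over 15 lists, rho = 0.75, r = 0.68 without the 2 farthest arrays). Tek alone had r = 0.74 with that mean deviation and Tie1 r = 0.56, but Eng had 0.26 and Emcn -0.14. Of markers of other cells, the fibroblast gene Dcn had r = 0.73 and the pericyte gene Pdgfrb r = 0.56. These 2 were picked outside the naming rule. Their whole lists, fibroblast and meninges and mural, had r = 0.47 and 0.64.

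Over all clusters with a single gene symbol, the 5 non-member genes whose deviations were most like the mean of the members' were Abhd5 (r = 0.81), Tom1l1 (r = 0.80), Kank2, Tpm4 and Jund (r = 0.78 each), over 24 arrays. The median signal over expressed clusters ran from 11.61 to 11.89 over the arrays, and the part of such differences in these coefficients was not tested. Of the members themselves, Flt1 (r = 0.83) and Abcb1a (r = 0.70) were closest to the mean and Mfsd2a was the farthest (r = 0.11). These coefficients are descriptions with no test, and the members' own are raised because each is part of the mean.

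The other lists of barrier genes had 0 genes past the adjusted test in any of the 9 contrasts. The gene nearest to it was Lrp1, an endocytic receptor that carries ligands such as amyloid-beta across brain endothelium and is also abundant in neurons and astrocytes. Signals of Lrp1, given as lowest, median and highest, were 12.07, 12.24 and 12.27 in CT, 12.38, 12.49 and 12.63 in SR and 12.21, 12.37 and 12.52 in SS, and 12.29, 12.36 and 12.39 in the 3 YSR arrays and 12.02, 12.20 and 12.28 in the 3 YSS arrays. All 6 SR arrays were above every CT array, with a fold of 1.22 (SRvsCT, log2 difference 0.29 ± 0.07 SE, unadjusted p = 0.000378, adjusted p = 0.0663), where 0.553% of all clusters and 1.69% of those above bioB were higher without overlap. When only the 9044 clusters above the bioB spike-in in CT were tested, as the study's methods did, the adjusted p of Lrp1 was 0.0381, and 1.99% of those clusters passed. SSvsCT gave 0.15 ± 0.07 SE and YSRvsCT 0.13 ± 0.08 SE, and neither passed (adjusted p = 0.559 and 0.972). Levels of the oligodendrocyte list were also higher in SR (11.90 to 12.68 per array) than in CT (11.63 to 12.15), with 7 of 7 genes above CT in mean and 5 of 7 higher at an unadjusted p under 0.05 (all clusters, 5.72%, and clusters above bioB, where 6 of the 7 lay, 15.9%), of which Mag had a difference of 0.65 (adjusted p = 0.107). The part of these markers in the Lrp1 value was not tested.

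Of 22 transporters beside the members, 3 were higher and 3 lower in SRvsCT at the unadjusted threshold (all clusters, 5.72% and 13%, and clusters above bioB, where 5 of the 22 lay, 15.9% and 5.38%), and 6 were higher in SSvsYSS (all clusters, 2.44%, and clusters above bioB, 3.86%). In YSRvsCT 4 were lower (all clusters, 3.46%, and clusters above bioB, 0.343%). In SRvsYSR 4 were higher and 1 lower (all clusters, 1.98% and 3.15%). The other comparisons had at most 2 in either direction. Abcb1b signals in SR lay below those in CT. The lowest, median and highest Abcb1b signals were 5.94, 6.02 and 6.07 in CT, 5.77, 5.81 and 5.90 in SR and 5.85, 5.98 and 6.13 in SS, and 5.69, 5.90 and 5.92 in the 3 YSR arrays and 5.91, 5.95 and 6.01 in the 3 YSS arrays. SRvsCT gave log2 difference -0.19 ± 0.06 SE, unadjusted p = 0.00452, adjusted p = 0.121, with 6 of 6 SR arrays below every CT array (all clusters, 0.699%) at signals near background. Abcc4, an exporter of cyclic nucleotides and drugs, had 6 of 6 SR arrays below every SS array (log2 difference -0.24 ± 0.08 SE, unadjusted p = 0.00844, adjusted p = 0.693, all clusters without overlap in this direction 0.215%). Slc19a3, a thiamine transporter, had 6 of 6 SR arrays below all 3 YSR arrays, as did 1.47% of all clusters. Slc19a3 signals (lowest, median and highest) were 8.57, 8.89 and 9.35 in CT, 8.13, 8.59 and 8.85 in SR and 8.59, 8.78 and 9.04 in SS, and 8.85, 8.91 and 9.72 in the 3 YSR arrays and 8.78, 9.03 and 9.32 in the 3 YSS arrays. The SRvsYSR difference was -0.61 ± 0.20 SE (adjusted p = 0.935), and it ran from -0.77 to -0.33 over 32 alternative settings. Abcc1, another exporter, had 6 of 6 SS arrays above all 3 YSS arrays, as did 1.56% of all clusters (log2 difference 0.36 ± 0.10 SE, unadjusted p = 0.00148, adjusted p = 0.679), and Slc6a6, a taurine transporter, 6 of 6 SR arrays above all 3 YSR arrays, as did 0.946% of all clusters, with a difference of 0.33 (adjusted p = 0.935). Slc39a8, a metal transporter, was -0.47 in YSRvsCT (adjusted p = 0.972). Each transporter named in this paragraph had a CT mean under the bioB spike-in.

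**Figure D4:**
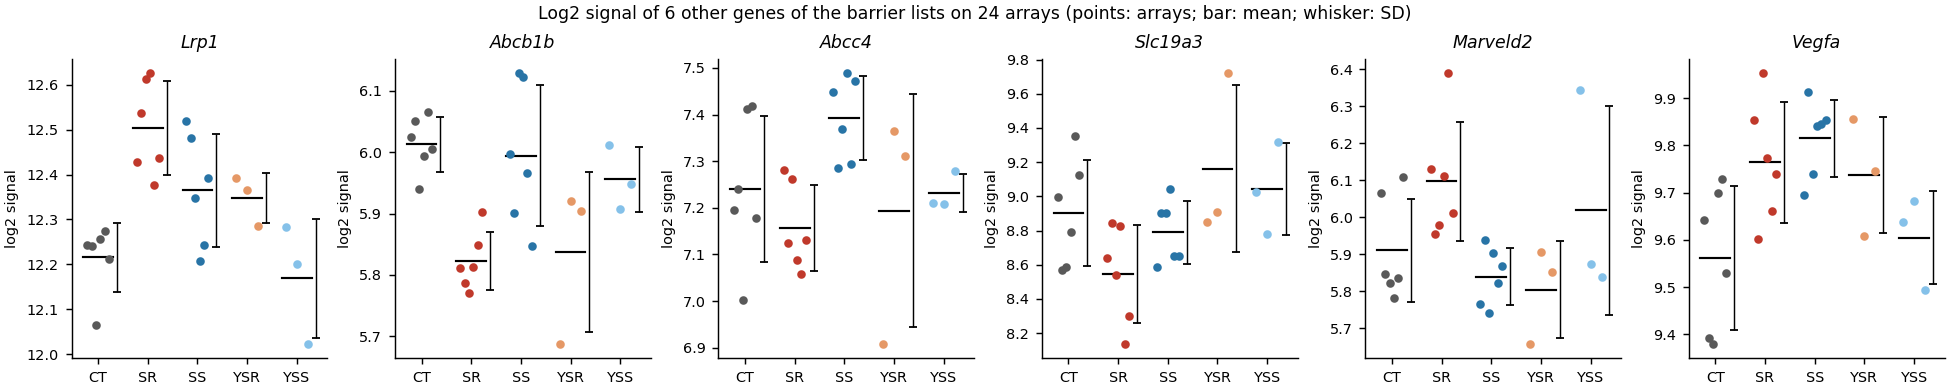
Log2 signal (vertical axis, its own scale in each panel) of Lrp1, Abcb1b, Abcc4, Slc19a3, Marveld2 and Vegfa by group, with 1 point per array, a bar at the mean and a whisker of 1 SD. The 6 SR arrays of Lrp1 (12.38 to 12.63) lie above the 6 CT arrays (12.07 to 12.27).

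Among 20 other junction genes, 4 were higher and 1 lower in SRvsCT at the unadjusted threshold (all clusters, 5.72% and 13%, and clusters above bioB, where 5 of the 20 lay, 15.9% and 5.38%). Marveld2 (tricellulin), which seals the corners where 3 cells meet, had 6 of 6 SR arrays above every SS array (log2 difference 0.26 ± 0.09 SE, unadjusted p = 0.00977, adjusted p = 0.693, all clusters without overlap in this direction 0.154%) and above all 3 YSR arrays (0.29, adjusted p = 0.935, all clusters 0.946%), although its signal was near background. The catenins Ctnnb1 and Ctnna1, which link cadherins to actin in many cell types, were 0.21 and 0.22 in SRvsCT (adjusted p = 0.184 and 0.195).

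In the VEGF and angiopoietin list of 15 genes, Vegfa is the ligand of both receptors among the members. Its means were higher than in CT in both methamphetamine groups and also in the saline rats of YSR. For Vegfa, the lowest, median and highest signals were 9.38, 9.59 and 9.73 in CT, 9.60, 9.76 and 9.95 in SR and 9.70, 9.84 and 9.91 in SS, and 9.61, 9.75 and 9.85 in the 3 YSR arrays and 9.49, 9.64 and 9.68 in the 3 YSS arrays. Of the SS arrays 5 of 6 and of the SR arrays 4 of 6 were above every CT array. SSvsCT gave log2 difference 0.25 ± 0.08 SE, unadjusted p = 0.00314, adjusted p = 0.354, and SRvsCT log2 difference 0.20 ± 0.08 SE, unadjusted p = 0.0148, adjusted p = 0.174. Both comparisons use the same CT arrays. The YSR mean was 9.74 and the YSS mean 9.60, and Kdr and Flt1 had no difference from CT past the test. Dll4, a Notch ligand of endothelial tip cells, was -0.18 in SSvsCT (adjusted p = 0.387), Apln, a ligand of the apelin receptor, 0.30 in SRvsCT (adjusted p = 0.158), and Angpt2, the Tek ligand that loosens vessels, -0.24 in SRvsSS (adjusted p = 0.72).

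The 16 genes of Wnt and barrier induction, the pathway that specifies this endothelium in mice, had 2 lower in SRvsCT at the unadjusted threshold. These were the transcription factors Foxq1 (-0.23, adjusted p = 0.175) and Lef1 (-0.14, adjusted p = 0.185), and all clusters had 13% lower there. Mean Lef1 signals were 5.94 in CT, 5.80 in SR, 5.80 in SS, 5.79 in YSR and 5.84 in YSS, so the lower mean was not particular to SR. The CT mean of Foxq1 was 4.90, and both genes were near background. Reck, part of the Wnt7 receptor complex, had 6 of 6 SS arrays above all 3 YSS arrays (0.30, adjusted p = 0.858, all clusters 1.56%), at a CT mean under the bioB spike-in. Of 12 genes of endothelial activation, such as adhesion molecules for leukocytes, 0 passed the unadjusted threshold in SRvsCT, SSvsCT or SRvsSS, and all 12 had a CT mean under the bioB spike-in.

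Cells that neighbour the endothelium were followed with marker lists. Of 15 mural genes, Abcc9, a potassium channel subunit of pericytes, was -0.40 in SRvsCT (4 of 6 SR arrays below every CT array, adjusted p = 0.111), and Rgs5, a pericyte regulator of G-protein signalling, 0.48 in SSvsYSS (adjusted p = 0.848). The CT mean of Abcc9 was under the bioB spike-in. Per array, the levels of the lists for mural cells (r = 0.64), for microglia and macrophages (r = 0.66) and for basement membrane (r = 0.53) also correlated with the mean member deviation (adjusted permutation p = 0.0107, 0.0071 and 0.0255 over 15 lists, rho = 0.58, 0.63 and 0.50), with r = 0.39, 0.68 and 0.44 without the 2 farthest arrays. So did the transport and junction lists (r = 0.64 each, adjusted permutation p = 0.0045 and 0.0107). The blood list had a negative coefficient (r = -0.52, adjusted permutation p = 0.0583). The fibroblast and meninges list had r = 0.47 (adjusted permutation p = 0.0583), and 0.22 without the 2 farthest arrays, which were SS replicates 1 and 3. SS replicate 1 had a choroid plexus level of 7.67 (others 4.81 to 5.15), with its defining marker Ttr, named after its values were seen, at 15.88 against 5.29 to 6.61 elsewhere, and its member mean was 9.10. The part of these markers in the member values was not tested. Without SS arrays 1 and 3 the members past the adjusted test remained 0 in every comparison, with adjusted p-values of 0.984 for Cdh5 in SSvsCT and 0.577 for Vegfa in SSvsCT. The accumbens neuron list gave the tissue check, with 11 of its 12 genes above the bioB spike-in in CT, although SS replicate 1 had the lowest level of this list (11.07, others 11.61 to 12.77).

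**Figure D5:**
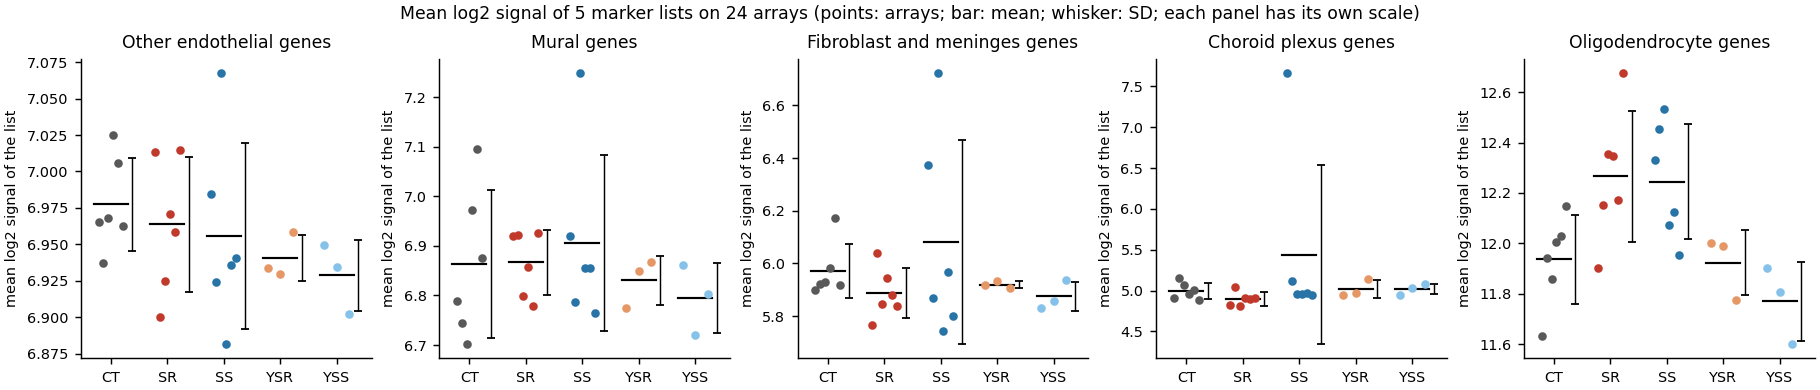
Mean log2 signal of 5 marker lists (vertical axis, its own scale in each panel) by group, with 1 point per array, a bar at the group mean and a whisker of 1 SD. SS replicate 3 is the highest point in the mural (7.25) and fibroblast (6.72) panels and SS replicate 1 in the choroid plexus panel (7.67), and SR and SS means of the oligodendrocyte genes lie above the other 3 groups.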

How the data were processed

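RNA from the nucleus accumbens of single rats had been hybridised to 24 arrays. The deposited values are log2 signals per transcript cluster, made by the authors with Affymetrix Expression Console per the submitters' processing notes. Sources used here do not give the version, background correction, normalization, summarisation or genome build. The authors also deposited annotation, including positions and probe numbers (of which symbols and chromosomes were used). Their log2 bi-weight group averages served only to check the labels, and each was closest to the array means of its own group. Their SDs, fold changes and p-values of their own comparisons were not used. The number of arrays limits the precision.

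The log2 signals were used as deposited. Groups came from the labels. Clusters were tested with limma 3.58.1 in R 4.3.3 (lmFit and eBayes) in 1 fit of the 5 groups over 68842 clusters, without the replicate number as a block, and p-values were adjusted by Benjamini-Hochberg over all clusters (threshold 0.05). The script was first tested on simulated data. Single differences were also given exact two-sided permutation tests, whose smallest possible p is 0.0022 for 6 against 6 arrays, 0.0238 for 6 against 3 and 0.1 for 3 against 3. Correlations used deviations from group means. Permutations and figures used Python 3.11.15 with scipy 1.17.1 and numpy 2.4.6. Of 225 listed genes 219 were found, 6 of them through a RefSeq synonym. Genes beside the members were named by rule: from each list and comparison up to 2 genes with the smallest unadjusted p under 0.05, the 5 genes most like the members' mean deviation, and Tek, Tie1, Emcn and Eng. The text gives part of them, and names Dcn, Pdgfrb and Ttr outside this rule. The members and lists were chosen with earlier results of these data known. Same-numbered samples of different groups did not deviate together on average (mean r = 0.0034 over 39 pairs). For SR with YSR the mean was -0.30 and for SS with YSS -0.10, over 3 pairs each, too few to exclude a pairing. The labels do not name the partner of a yoked rat, so the yoking was not modelled. SRvsYSR and SSvsYSS are therefore unpaired. Alternatives were other scalings, filters, moderation, array weights, a replicate block and leaving out each array.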

Additional observations from a re-analysis of the deposited data

Results flagged for a closer look

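Of 75 sets of values from groups of 6 arrays, 5 held an array far from the others by Dixon's ratio, and chance gives about 1 in 20. Among the members, Cldn5 was 7.58 in SR replicate 4 (other SR arrays up to 7.16) and Cdh5 was 9.26 in SS replicate 3 (other SS arrays 8.07 to 8.35). Of the marker lists, the choroid plexus level was 7.67 in SS replicate 1 (other SS arrays 4.95 to 5.11), the mural level was 7.25 in SS replicate 3 (other SS arrays 6.76 to 6.92) and the fibroblast and meninges level was 6.17 in CT replicate 5 (other CT arrays 5.90 to 5.98).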

How the results depend on the processing

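The number of members past the adjusted test was 0 in every comparison under every alternative run, and 0 to 0 when each array was left out in turn. With unadjusted p-values it was 1 in YSSvsCT. Among the correlations, 5 pairs passed, against 1 with equal array medians, 2 with another quantile normalization, 3 without SS arrays 1 and 3 (chosen after seeing the data), and 0 to 6 when each array was left out, the 0 without SS replicate 3. The sign of Cdh5 turned in SSvsCT to -0.0038 without SS replicate 3 (-0.0038 to 0.24 over all arrays left out in turn) and to -0.018 without SS arrays 1 and 3, and in SRvsSS to 0.0011 without SS arrays 1 and 3. The adjusted p of Lrp1 in SRvsCT ran from 0.0381 to 0.219 over 33 settings and was under 0.05 in 3. The number of clusters called in SRvsCT was 233, against 0 when only the 2 groups were fitted, 18 with equal medians, 36 with quantile normalization, 50 with the replicate block, 35 without SS arrays 1 and 3, and 2 (without CT replicate 2 or SR replicate 3, 5 or 6) to 1273 (without SR replicate 1) when each array was left out. The cause was not tested. With the replicate block 0 members were called, and it changed no other call of a member. Each member had 1 cluster, so averaging clusters gave no other value.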
